A study of Homo sapiens with 24 samples.

Results

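BXPC3 and MIAPACA2 are established cell lines grown from human pancreatic adenocarcinomas, and their gene expression without drug was compared here over all genes of a poly(A) RNA sequencing count table. The members were the libraries labelled vehicle in these lines, 4 of BXPC3 and 4 of MIAPACA2, which make 8 of the 24 libraries of the series. The others are 8 libraries of the same lines with the PRMT5 inhibitor AM9747 and 8 libraries of another line, PSN1. BXPC3 vehicle cells and MIAPACA2 vehicle cells both received DMSO and were harvested at day 6, in media with 10% fetal bovine serum. The submitters describe both lines as MTAP-deleted while the genotype label reads WT. By their description the loss of MTAP, an enzyme that recycles methylthioadenosine, is shared by all 8 libraries. Levels of MTAP and its neighbours in each line are given below, and DNA was not measured. A second pair of groups, BXPC3 with AM9747 at 100 nM and MIAPACA2 with AM9747 at 150 nM, both at day 6 and with 4 libraries each, shares no library with the vehicle groups and was used to see which line differences were measured again and where they differed with treatment. Each group is a single cell line, so n = 4 gives the spread among libraries of that line, which may be technical since the labels do not name separate cultures.

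Pancreatic carcinoma cells lie along an axis between an epithelial state, held together by E-cadherin junctions, desmosomes and keratin filaments, and a mesenchymal state with vimentin filaments. Repressors of the ZEB and SNAIL families bind E-box letters in promoters of epithelial genes, and miRNAs of the miR-200 family in turn repress the ZEB transcripts. Tumours of this tissue are also sorted into a classical group with gland and mucin genes and a basal-like group with squamous keratins, and they often lose the TGF-beta signal carrier SMAD4 and the 9p21 genes CDKN2A, CDKN2B and MTAP.

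The vehicle libraries held 30068464 to 45561185 counts. A count of 0 allows up to 3 counts at 95% confidence, for counting error only, which in 1 library is 0.0644 to 0.0982 counts per 1000000 (CPM). All levels below are CPM with TMM scaling, not corrected for gene length, so they compare the lines gene by gene and not one gene with another. Levels of libraries of 1 line correlated at Pearson r of 0.969 to 0.997 over log2 CPM and those of different lines at 0.720 to 0.771. BXPC3 vehicle 4 stood apart from the other BXPC3 libraries, with a chi-square per gene of 133 to 174 against them and 6.69 to 10.2 among the others. Among the MIAPACA2 libraries the same value was 27.4 to 269.8, the highest for vehicle 2 against vehicle 4. No pair of libraries was close enough to be a repeat deposit of 1 library. The mitochondrial genome took 6.60 to 8.98% of the counts in BXPC3 and 6.58 to 20.5% in MIAPACA2. The common dispersion, 1 value fitted over all genes and both groups, gave a biological coefficient of variation of 29.6%. Of 65 genes with at least 100 CPM in BXPC3 and under 0.1 CPM in MIAPACA2, MIAPACA2 vehicle 2 had counts for 32, more than MIAPACA2 vehicle 1, 3 and 4, with 6, 13 and 18. The source of these traces was not tested, and they are given as measured. Without BXPC3 vehicle 4 the beyond 2-fold calls described next numbered 7291, and without MIAPACA2 vehicle 2 they numbered 6975.

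The lines differed in most genes. Of 18451 genes tested, 11999 (65.0%) passed at an adjusted p below 0.05 (edgeR's quasi-likelihood test with Benjamini-Hochberg adjustment), 6264 (33.9%) higher in BXPC3 and 5735 (31.1%) higher in MIAPACA2. Because so many genes passed, the calls below ask for a difference beyond 2-fold, that is, a test against a log2 fold change of 1 (edgeR glmTreat). By that call 3519 genes (19.1%) were higher in BXPC3 and 3026 (16.4%) higher in MIAPACA2, and these shares are the background for each gene list. A gene near 0 in 1 line passes the filter on low counts only through the line where it is high. Lists rich in such genes therefore hold calls more readily. With library totals in place of TMM factors the median log2 fold change of all genes shifted by -0.18, and beyond 2-fold 3179 genes were then higher in BXPC3 and 3487 in MIAPACA2. In 11110 genes (60.2%) the libraries of the lines did not overlap. Of the genes given below with values, all called beyond 2-fold had no overlap between the lines. Many of them were chosen by a rule that asked for no overlap, so for those it is no finding. In such bulk libraries, fewer cells with a transcript and less of it per cell cannot be told apart. The median absolute log2 fold change was 1.02. Among protein-coding genes outside chromosome Y, 826 reached 1 CPM in BXPC3 with under 0.1 CPM in MIAPACA2, and 306 showed the reverse. A further 10858 reached 1 CPM in both lines.

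**Figure D1:**
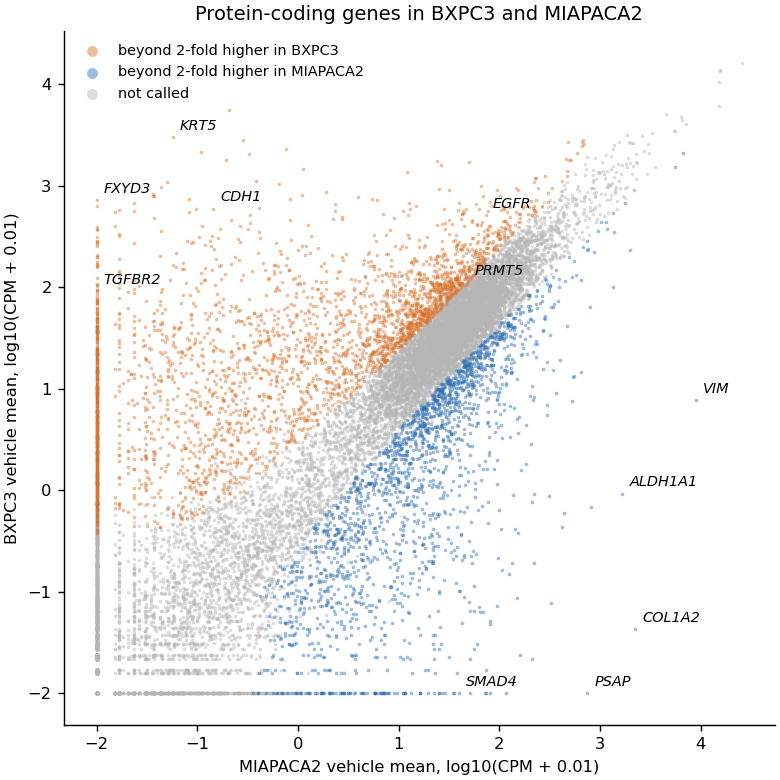
Mean level of each protein-coding gene in BXPC3 (vertical axis) against MIAPACA2 (horizontal axis), log10 of CPM plus 0.01, 4 vehicle libraries each. Orange points were beyond 2-fold higher in BXPC3 and blue points higher in MIAPACA2 at an adjusted p below 0.05. The 826 genes at 1 CPM or more in BXPC3 and under 0.1 CPM in MIAPACA2 lie at the upper left, and the 306 of the reverse kind at the lower right.

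The 10 genes per line with the highest level in that line and under 0.1 CPM in the other open the description. In BXPC3 these included KRT5, KRT7 and KRT6A (keratins), FST (follistatin, which binds activins), CEACAM5 and CEACAM6 (carcinoembryonic antigens), COL12A1 (a collagen), FXYD3 (a regulator of the sodium pump) and THBS1 (thrombospondin 1). KRT5 had 2947, 2681, 2882 and 3642 CPM in the BXPC3 libraries, against 0, 0.187, 0 and 0 CPM in the MIAPACA2 libraries. FXYD3 had 623, 565, 623 and 1099.7 CPM in BXPC3 and no count in MIAPACA2, at least 36607-fold higher when MIAPACA2 is set to 3 counts over its 4 libraries. In MIAPACA2 the list held COL1A2, COL6A2 and COL6A3 (collagen chains), PSAP (prosaposin, the source of the saposins that lysosomal enzymes need), TUBB4A (a tubulin), CUBN (the receptor cubilin), LAMB2 (a laminin chain), CALB2 (the calcium binding protein calretinin), CBSL (a near copy of CBS, whose reads the counting could share between the copies) and SMO (the Hedgehog signal transducer smoothened). CALB2 had no count in BXPC3, against 121, 111, 118 and 112 CPM in the MIAPACA2 libraries, so BXPC3 was at least 5881-fold lower. SMO had no count in BXPC3 either, against 96.5, 72.9, 72.9 and 79.5 CPM in MIAPACA2, at least 4089-fold lower in BXPC3.

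Among genes of at least 1 CPM in both lines, the 10 largest differences per direction are named. TNFRSF21, a death receptor, averaged 1471 ± 208 CPM in BXPC3 and 1.11 ± 0.314 CPM in MIAPACA2 (SD, n = 4 each), a log2 fold change of 10.36 ± 0.29 (SE). Here and below the SE is the size of the log2 fold change over the square root of F in the quasi-likelihood test. It is approximate, and for genes near 0 in 1 line it may understate the error. CDH3, the gene of P-cadherin, SFN, the gene of the epithelial protein stratifin, and KLF5, an epithelial transcription factor, followed with log2 fold changes of 9.53 ± 0.35, 8.86 ± 0.29 and 8.33 ± 0.26. The others on that side were NECTIN1 (an adhesion molecule), S100A2, SOX7 (a transcription factor), PTGFRN, C3 (complement component 3) and STOM (stomatin), with log2 fold changes of 7.76 to 8.16. The largest in the other direction was VIM, the gene of vimentin (chromosome 10, 17228259 to 17237593 in GRCh38). Its level was 5.84, 7.03, 7.88 and 10.3 CPM in the BXPC3 libraries, against 9865, 7692, 8422 and 9829 CPM in the MIAPACA2 libraries, a log2 fold change of -10.17 ± 0.28 with an adjusted p of 3.06e-09. TUBA1A, a tubulin, MRC2, a collagen uptake receptor, SHOX2, a homeobox gene, and COL5A2, a fibrillar collagen chain, were next, at -6.70, -6.67, -6.19 and -6.13 on the log2 scale. SEMA6B (a semaphorin), PNMA2, RNF157, EPHA4 (an ephrin receptor) and GATD3A (which has a near copy that may share its reads) completed that side.

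All 35 measured members of the epithelial identity list were beyond 2-fold higher in BXPC3, against the 19.1% of all genes. Their median log2 fold change was 8.72 when groups without counts are set to 3 counts. Of the 35, 7 had no count in MIAPACA2 and passed the filter on low counts through BXPC3 alone, so they were nearly bound to be called. The list was written with earlier results of these data known, so its share is a description and no independent support. CDH1, the gene of E-cadherin (chromosome 16, 68737225 to 68835548 in GRCh38), had 682, 666, 596 and 433 CPM in the BXPC3 libraries, against 0.328, 0.160, 0.0430 and 0 CPM in the MIAPACA2 libraries. The groups did not overlap, with a log2 fold change of 12.22 ± 0.54 and an adjusted p of 3.21e-08. EPCAM, an epithelial adhesion protein, had 107, 121, 107 and 136 CPM in BXPC3, against 0.0655, 0.107, 0 and 0 CPM in MIAPACA2. ESRP1, which directs epithelial splicing, and GRHL2, a transcription factor of epithelia, had no count in any MIAPACA2 library. ESRP1 averaged 162 ± 38.5 CPM and GRHL2 108 ± 18.3 CPM in BXPC3, at least 8131-fold and 5437-fold higher. MAL2 and RAB25, which act in apical traffic, were also without counts in MIAPACA2 and averaged 199.7 ± 33.1 and 94.1 ± 22.6 CPM in BXPC3. ELF3, an epithelial transcription factor, was the mildest of those named here, at 185, 141, 162 and 195 CPM in BXPC3 and 5.14, 4.17, 4.17 and 4.24 CPM in MIAPACA2. OVOL1, a repressor that holds cells epithelial, had 20.9, 21.7, 20.4 and 24.5 CPM in BXPC3, against 1.08, 0.0802, 0.387 and 0.661 CPM in MIAPACA2.

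**Figure D2:**
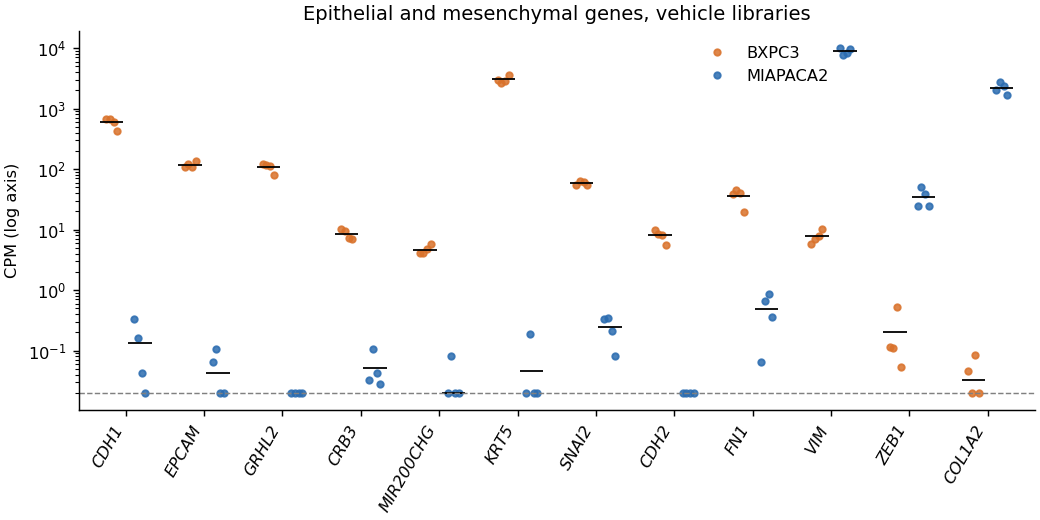
Level of 12 epithelial and mesenchymal genes in each vehicle library (CPM, log axis), BXPC3 in orange left of MIAPACA2 in blue. Each point is a library, the bar is the group mean, and libraries without a count are drawn on the dashed line at 0.02 CPM. CDH1, EPCAM, GRHL2, CRB3, MIR200CHG and KRT5 were high in BXPC3, VIM, ZEB1 and COL1A2 were high in MIAPACA2, and SNAI2, CDH2 and FN1, which belong to the mesenchymal list, were high in BXPC3.

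CRB3, the gene of the polarity protein Crumbs3, had 10.3, 9.40, 7.35 and 7.001 CPM in BXPC3, against 0.0328, 0.107, 0.0430 and 0.0276 CPM in MIAPACA2, a log2 fold change of 7.24 ± 0.39. Of the 19 epithelial identity genes with an entry in the RefSeq promoter table used it has the most E-box letters CACCTG or CAGGTG (the same motif read on either strand) in the 250 bases before its start site, with 5 matches, and it is shown for that reason. They begin 228, 208, 147, 89 and 60 bases before the start site. The window lies at chr19:6464021-6464270 on the plus strand of GRCh38.p14 (RefSeq), with the E-box letters in capitals.
CRB3 upstream: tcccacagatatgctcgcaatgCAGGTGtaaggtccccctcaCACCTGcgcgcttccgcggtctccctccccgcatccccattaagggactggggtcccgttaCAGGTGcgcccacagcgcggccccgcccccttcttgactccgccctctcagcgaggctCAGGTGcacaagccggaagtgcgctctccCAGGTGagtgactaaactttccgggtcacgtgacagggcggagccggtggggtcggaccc
The list has 35 members, and 8 of the 19 with an entry (42.1%) hold at least 1 match, against 17.5% of the 27305 promoters in the table. On the junction list below, 5 of 17 genes with an entry (29.4%) hold one. The match is a description of letters, and no binding was measured. The counterpart on the RNA side is the miR-200 family. Its mature forms from the cluster on chromosome 12 are shown because their precursors were in the table, with the seed (bases 2 to 8) in capitals, from RefSeq (GRCh38.p14).
miR-200c-3p (chr12:6963742-6963764, plus strand): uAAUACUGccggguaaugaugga
miR-141-3p (chr12:6964155-6964176, plus strand): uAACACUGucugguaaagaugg
Poly(A) libraries hold little of such precursors, and the 5 precursor entries of the family had 4 counts in all BXPC3 libraries together and 0 in all MIAPACA2 libraries, too few to compare. MIR200CHG, the host transcript of that cluster, was measured at 4.07, 4.06, 4.74 and 5.76 CPM in BXPC3, against 0, 0.0802, 0 and 0 CPM in MIAPACA2, which is 3 counts in all, with an adjusted p of 5.50e-06. ZEB1, a target of the family, ran the other way, at 0.117, 0.109, 0.529 and 0.0541 CPM in BXPC3 and 24.5, 50.4, 38.4 and 24.7 CPM in MIAPACA2, a log2 fold change of -7.42 ± 0.56.

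Genes of cell junctions were higher in BXPC3 by the same call, which 19.1% of all genes passed on that side and 16.4% on the other. Of 24 measured genes of tight and adherens junctions, 18 were beyond 2-fold higher in BXPC3, none higher in MIAPACA2 and 6 not beyond 2-fold. CLDN1, a claudin, had 834, 845, 783 and 623 CPM in BXPC3, against 3.998, 4.54, 3.78 and 3.42 CPM in MIAPACA2. OCLN, the gene of occludin, was not beyond 2-fold, at 34.5 ± 7.13 CPM in BXPC3 and 21.3 ± 3.50 CPM in MIAPACA2. Of 22 measured desmosome and hemidesmosome genes, 17 were beyond 2-fold higher in BXPC3 and none in MIAPACA2. PKP1, a desmosomal plakophilin, had 229.8, 195, 195 and 146 CPM in BXPC3 and a single count in all of MIAPACA2. DSP, the gene of desmoplakin, was measured in both lines, at 1017, 1123, 1002 and 529 CPM in BXPC3 and 26.5, 50.4, 33.1 and 17.7 CPM in MIAPACA2. LAMA3 and LAMB3, laminin chains that anchor hemidesmosomes, were both higher in BXPC3. LAMA3 averaged 374 ± 61.6 CPM in BXPC3 and 0.159 ± 0.143 CPM in MIAPACA2, and LAMB3 averaged 586 ± 51.7 CPM in BXPC3 and 12.8 ± 6.04 CPM in MIAPACA2. Their receptor chains split, since ITGA6 passed with a log2 fold change of 5.35 ± 0.38, while ITGB4 averaged 817 ± 19.1 CPM in BXPC3 and 422 ± 66.3 CPM in MIAPACA2 and did not pass beyond 2-fold (adjusted p = 0.669).

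Keratins of the simple and squamous kinds are given in turn. KRT8 and KRT18, the pair of simple epithelia, were present in both lines, with BXPC3 vehicle 4 above the other BXPC3 libraries for both. KRT8 had 2313, 2124, 2196 and 3587 CPM in BXPC3, against 709, 628, 706 and 706 CPM in MIAPACA2, and passed beyond 2-fold, while KRT18, at 1715, 1541, 1589.7 and 2794 CPM in BXPC3 and 859, 551, 659 and 889 CPM in MIAPACA2, did not (adjusted p = 0.0597). KRT19, a ductal keratin, was 6.20 ± 0.28 higher in BXPC3 on the log2 scale. The squamous keratins were near 0 in MIAPACA2. KRT17 had 4833, 4438, 4714 and 8084 CPM in BXPC3, against 0.590, 0.0802, 0 and 0.110 CPM in MIAPACA2, and KRT13 had 2208, 1965, 2106 and 2871 CPM in BXPC3, against 0.360, 0.749, 0.902 and 1.02 CPM in MIAPACA2. In all, 14 of 18 measured keratins were beyond 2-fold higher in BXPC3 and none in MIAPACA2, against 19.1% and 16.4% of all genes. TP63, the transcription factor of squamous epithelium, was measured in both lines, at 244, 262, 233 and 167 CPM in BXPC3 and 38.1, 44.0, 39.9 and 28.1 CPM in MIAPACA2, a log2 fold change of 2.59 ± 0.19. KRT6A shares long stretches with KRT6B and KRT6C, so its counts may include theirs.

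Classical and basal-like marker lists were both higher in BXPC3. Of 13 measured classical genes 11 were beyond 2-fold higher in BXPC3 and none in MIAPACA2, and of 23 measured basal-like genes 19 were higher in BXPC3 and 1 in MIAPACA2. The shares over all genes are 19.1% and 16.4%. The classical list has 24 members, of which 2 had no count in BXPC3 and 15 none in MIAPACA2. Among the measured genes, 5 classical and 9 basal-like ones had no count in 1 of the lines. With the filter of at least 5 CPM in 4 libraries, 6 classical genes were higher in BXPC3. AGR2, a disulfide isomerase of mucous cells on the classical list, had 286, 308, 309 and 384 CPM in BXPC3 and a single count in MIAPACA2. GATA6, a transcription factor known to mark classical tumours and held on the lineage list below, had 62.8, 59.4, 59.5 and 70.1 CPM in BXPC3 and no count in MIAPACA2, at least 3167-fold higher. On the basal-like list, S100A2, a calcium binding protein, had 481, 394, 534 and 839 CPM in BXPC3, against 2.85, 2.35, 1.68 and 2.42 CPM in MIAPACA2. FGFBP1, which releases fibroblast growth factors, had 354, 347, 321 and 465 CPM in BXPC3 and no count in MIAPACA2. The exception was UCA1, a long noncoding RNA, with 22.1, 20.5, 20.3 and 17.9 CPM in BXPC3 and 117, 89.1, 94.3 and 108 CPM in MIAPACA2. Mucins and surface antigens that serve as tumour markers gave 15 of 17 measured genes higher in BXPC3 and 2 (MUC3A and CEACAM19) higher in MIAPACA2, or 4 without BXPC3 vehicle 1. Of the 17, 5 had no count in 1 of the lines. MUC4 had 217, 304, 284 and 339.6 CPM in BXPC3, against 0, 0.160, 0 and 0.331 CPM in MIAPACA2. CEACAM5 and CEACAM6 are alike in sequence, so reads may be split between them, and CEACAM5 had 748, 894, 786 and 721 CPM in BXPC3 and 4 counts in MIAPACA2. Glycosyltransferases that build mucin sugars gave 21 of 29 higher in BXPC3 and 1 in MIAPACA2, with B3GNT3 at 106 ± 5.71 CPM in BXPC3 and without a count in MIAPACA2.

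**Figure D3:**
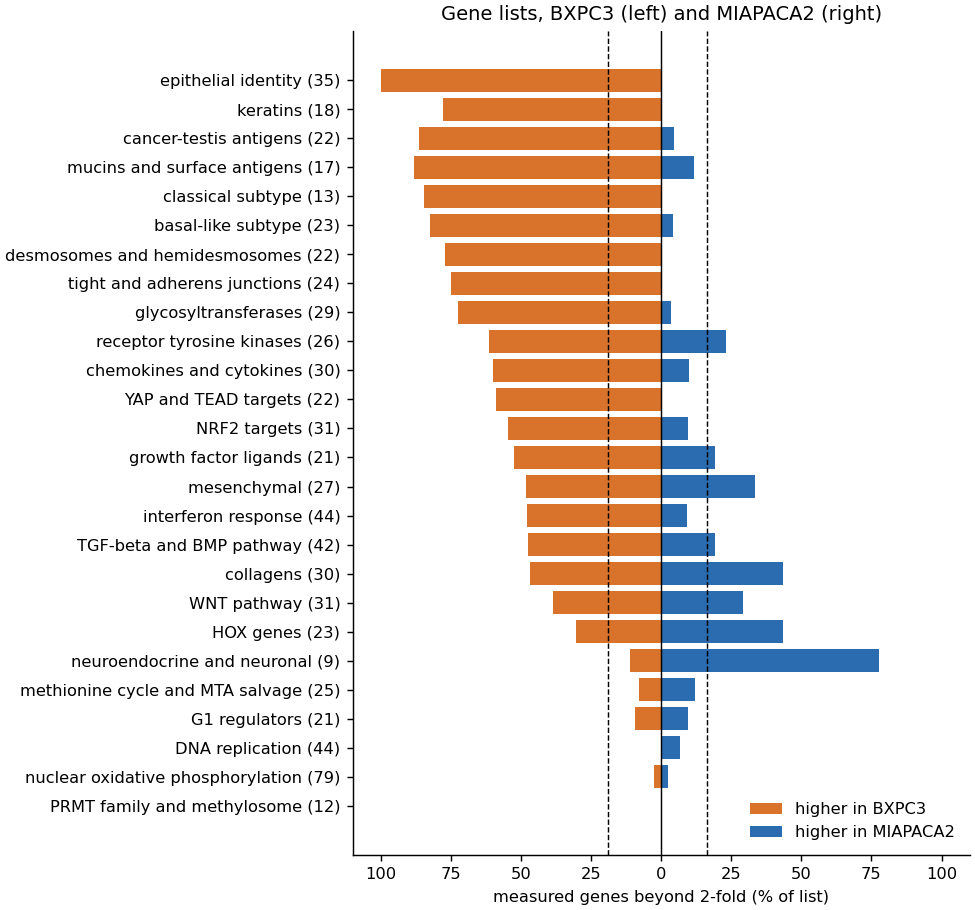
Share of the measured members of each gene list that were beyond 2-fold higher in BXPC3 (orange, left) or in MIAPACA2 (blue, right), with the number measured beside each name. Dashed lines mark the shares over all genes tested, 19.1% and 16.4%. Epithelial lists extend far past the left line, neuroendocrine genes past the right line, and PRMT and nuclear oxidative phosphorylation genes stay within both.

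The mesenchymal list split between the lines. Of 27 measured members, 13 were beyond 2-fold higher in BXPC3 and 9 higher in MIAPACA2, against 19.1% and 16.4% of all genes. The MIAPACA2 members were VIM, ZEB1, COL1A2, COL6A1, COL6A2, COL6A3, LOXL2 (a collagen cross-linker), S100A4 and FGFR1. COL1A2 had 0.0468, 0, 0.0836 and 0 CPM in the BXPC3 libraries, against 2031, 2747, 2389 and 1695 CPM in the MIAPACA2 libraries, a log2 fold change of -15.91 ± 0.47. With so few counts in BXPC3, that size and its SE depend on how the fit treats counts near 0. The partner chain COL1A1 was higher in BXPC3, at 18.7, 14.5, 17.9 and 20.9 CPM, than in MIAPACA2, at 0.885, 1.497, 1.10 and 2.37 CPM. These chains build one trimer, and their log2 fold changes had opposite signs, with 3.62 ± 0.31 for COL1A1. COL6A1 was present in both lines, at 41.4 ± 5.43 CPM in BXPC3 and 472 ± 65.8 CPM in MIAPACA2, while COL6A2 and COL6A3 were near 0 in BXPC3. The BXPC3 members included SNAI2, CDH2, CDH11, FN1, COL1A1, COL3A1 and the receptor kinase AXL. SNAI2, the repressor Slug, had 53.7, 63.8, 61.1 and 55.2 CPM in BXPC3, against 0.328, 0.348, 0.215 and 0.0827 CPM in MIAPACA2. CDH2, the gene of N-cadherin, had 9.87, 8.48, 8.30 and 5.57 CPM in BXPC3 and no count in MIAPACA2. FN1, the gene of fibronectin, was at 38.6, 45.3, 40.3 and 19.2 CPM in BXPC3 and 0.0655, 0.668, 0.859 and 0.358 CPM in MIAPACA2. ZEB2 passed at low level, 0.767 ± 0.347 CPM in BXPC3 and 0.0605 ± 0.0551 CPM in MIAPACA2. SNAI1 was not beyond 2-fold (adjusted p = 0.851), and TWIST1 had no count in either line. The collagen family also held calls in both directions, 14 of 30 higher in BXPC3 and 13 in MIAPACA2.

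Lineage transcription factors held calls in both directions. Of 20 measured members of the pancreatic lineage list, 10 were beyond 2-fold higher in BXPC3 and 5 in MIAPACA2. The background shares were 19.1% and 16.4%. FOXA1 and FOXA2, pioneer factors of the gut tube, were higher in BXPC3. FOXA1 had 47.4, 50.2, 48.7 and 50.5 CPM in BXPC3, against 0, 0.214, 0.687 and 0.303 CPM in MIAPACA2, and FOXA2 averaged 15.4 ± 3.52 CPM in BXPC3 without a count in MIAPACA2. SOX2, a stem cell and squamous factor, had 4.91, 5.34, 7.16 and 6.65 CPM in BXPC3 and no count in MIAPACA2. The 5 higher in MIAPACA2 included SOX9, a ductal progenitor factor, GATA4, and PAX6 and ONECUT2, which act in endocrine or progenitor cells. SOX9 had 24.7, 23.7, 18.998 and 21.4 CPM in BXPC3, against 169, 145, 171 and 189 CPM in MIAPACA2, and PAX6 had 0.351, 0.436, 0.696 and 0.568 CPM in BXPC3, against 10.8, 12.1, 14.5 and 11.2 CPM in MIAPACA2. PDX1 was under 1 CPM on average in both lines.

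Neuroendocrine and neuronal genes were more often higher in MIAPACA2, beside 19.1% of all genes higher in BXPC3 and 16.4% in MIAPACA2. Of 9 measured members, 1 (UCHL1) was beyond 2-fold higher in BXPC3, or 2 without MIAPACA2 vehicle 4, and 7 were higher in MIAPACA2, while 10 of the 30 listed had no count in BXPC3 and 12 none in MIAPACA2. SCG2, a secretogranin of dense core vesicles, had 0.491, 0.899, 0.613 and 0.703 CPM in BXPC3, against 846, 887, 820.0 and 728 CPM in MIAPACA2, a log2 fold change of -10.24 ± 0.23. CHGB, the gene of chromogranin B, had a single count in BXPC3, against 15.4, 16.04, 14.7 and 8.63 CPM in MIAPACA2. TUBB3, a neuronal tubulin, had 11.4, 9.16, 7.66 and 14.7 CPM in BXPC3 and 216, 199, 226 and 194 CPM in MIAPACA2, and L1CAM, a neural adhesion molecule, averaged 5.57 ± 1.09 CPM in BXPC3 and 102 ± 9.46 CPM in MIAPACA2. CHGA, the usual marker chromogranin A, had no count in either line.

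HOX genes, which pattern the body axis in the embryo, are given by cluster. Of 23 measured genes, 7 were beyond 2-fold higher in BXPC3 and 10 in MIAPACA2, against 19.1% and 16.4% of all genes. The HOXB cluster accounted for 8 of the 10, from HOXB2 to HOXB13, with HOXB7 as the exception. HOXB8 had 0.210, 0.245, 0.641 and 0.514 CPM in BXPC3, against 172, 104, 119 and 183 CPM in MIAPACA2, a log2 fold change of -8.49 ± 0.38. HOXB9 had 8.51, 7.74, 6.88 and 10.5 CPM in BXPC3, against 203, 184, 209 and 202 CPM in MIAPACA2, whereas HOXB7 overlapped between the lines, at 16.3, 18.0, 17.1 and 29.7 CPM in BXPC3 and 29.2, 20.4, 25.4 and 35.2 CPM in MIAPACA2 (adjusted p = 0.121, or 0.00961 without BXPC3 vehicle 4). HOXA10 had 27.6, 28.7, 25.3 and 31.1 CPM in BXPC3 and no count in MIAPACA2, and HOXA9, HOXC9, HOXC10, HOXC11 and HOXC13 were also higher in BXPC3, with at most 4 counts in MIAPACA2, as was HOXA3. HOXA11 and HOXC8 were higher in MIAPACA2, so neither the HOXA nor the HOXC cluster moved as a whole.

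**Figure D4:**
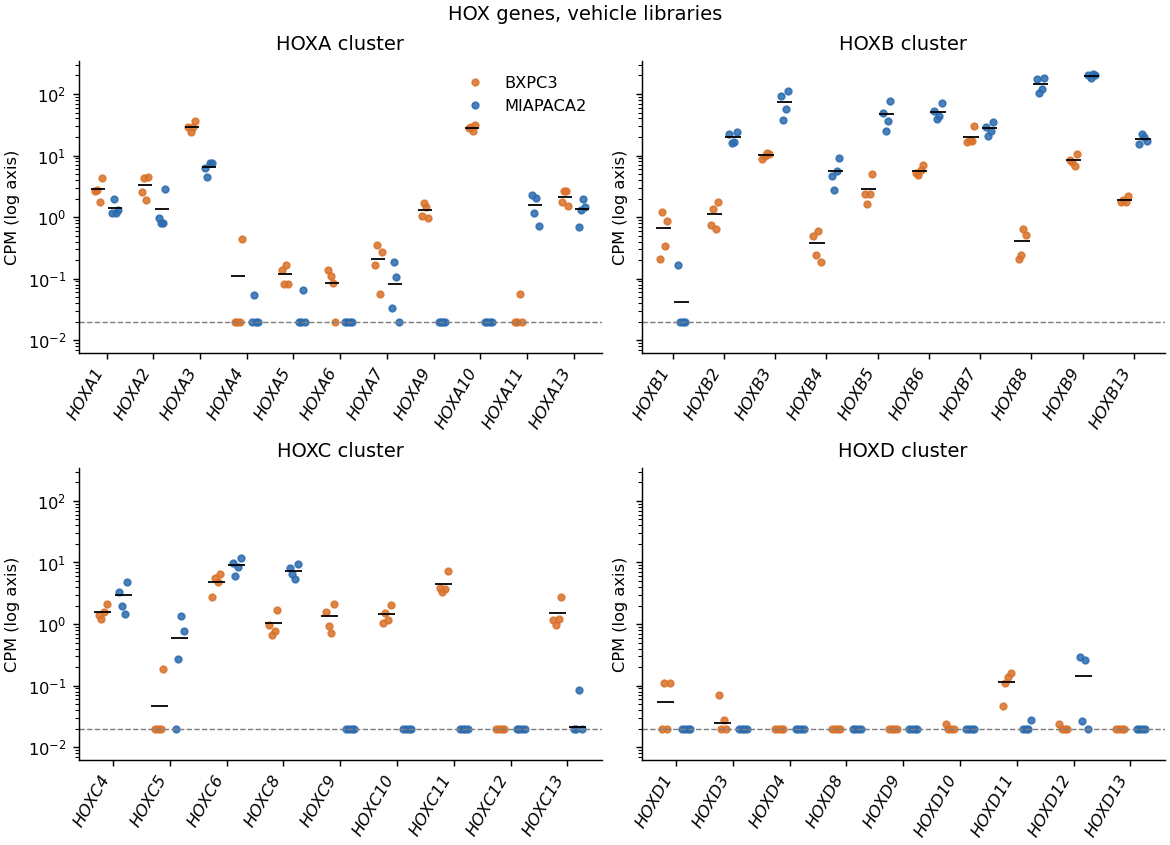
Level of HOX genes in each vehicle library (CPM, log axis), in 4 panels for the clusters HOXA to HOXD, genes by number. Orange points are BXPC3 libraries and blue points, drawn right of them, MIAPACA2 libraries, with libraries without a count on the dashed line at 0.02 CPM. MIAPACA2 lies above BXPC3 along the HOXB cluster apart from HOXB1 and HOXB7, and BXPC3 lies above at HOXA3, HOXA9, HOXA10, HOXC9, HOXC10, HOXC11 and HOXC13.

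Of 44 listed genes of the TGF-beta and BMP pathway, 1 was without counts in BXPC3 and 5 were without counts in MIAPACA2. SMAD4, the shared signal carrier (chromosome 18, 51028394 to 51085045 in GRCh38), had no count in any BXPC3 library, against 29.4, 52.3, 46.0 and 29.8 CPM in the MIAPACA2 libraries, so BXPC3 was at least 2002-fold lower. TGFBR2, the receptor that binds the ligand (chromosome 3, 30606502 to 30694142 in GRCh38), had 105, 109, 99.4 and 51.5 CPM in BXPC3 and no count in any MIAPACA2 library, at least 4589-fold higher in BXPC3. TGFBR1, the partner receptor, was present in both, at 38.1, 38.0, 32.9 and 16.5 CPM in BXPC3 and 9.40, 11.6, 8.35 and 5.65 CPM in MIAPACA2. Of 42 measured pathway genes, 20 were beyond 2-fold higher in BXPC3 and 8 in MIAPACA2, against 19.1% and 16.4% of all genes. The MIAPACA2 count is thus near its share over all genes. The ligand TGFB2 averaged 83.5 ± 31.3 CPM in BXPC3 and 4.47 ± 1.73 CPM in MIAPACA2. FST, the activin trap, had 737, 803, 752 and 1016 CPM in BXPC3 and 4 counts in MIAPACA2, and BMP2 had 15.8, 15.997, 18.5 and 14.8 CPM in BXPC3 and no count in MIAPACA2. Among targets, SMAD7, the inhibitory SMAD, had 20.2, 16.4, 17.0 and 15.6 CPM in BXPC3 and 1.70, 0.802, 0.881 and 1.13 CPM in MIAPACA2. Of the ID genes, targets of BMP signals, ID2 and ID3 ran the other way. ID3 had 6.08, 5.83, 6.16 and 9.65 CPM in BXPC3, against 289, 285, 346 and 280.1 CPM in MIAPACA2, a log2 fold change of -5.44 ± 0.21, and ID2 one of -8.06 ± 0.42. ID1 was on the BXPC3 side, at 230.4, 202, 238 and 495 CPM in BXPC3 and 174, 101, 136 and 236 CPM in MIAPACA2, which overlap, with a log2 fold change of 0.85 ± 0.33. It did not pass beyond 2-fold (adjusted p = 0.728), and it passed the test of any difference (adjusted p = 0.0428) but not without BXPC3 vehicle 4 or without MIAPACA2 vehicle 1, 2 or 3, at 0.0704 to 0.113.

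Neighbours of SMAD4 were also without counts in BXPC3. Within 1 Mb of SMAD4 on chromosome 18, ELAC1 and MEX3C also had no count in BXPC3, against means of 7.10 ± 1.13 and 74.4 ± 23.6 CPM in MIAPACA2. ME2, a mitochondrial malic enzyme next in line, had 0.210, 0.354, 0.529 and 0.757 CPM in BXPC3, against 66.5, 98.2, 87.0 and 59.9 CPM in MIAPACA2. Farther off, MBD1, CXXC1 and SKA1 were measured in both lines and not beyond 2-fold, with log2 fold changes of 0.56 ± 0.10, 0.29 ± 0.15 and 0.26 ± 0.14. The flank was not alike in the lines throughout. The gene beyond these at the edge of the window, a member of the epithelial identity list, was beyond 2-fold higher in BXPC3. Around MTAP (chromosome 9, 21802543 to 21937651 in GRCh38) most genes were without counts in both lines. CDKN2A, CDKN2B, DMRTA1, KLHL9 and the interferon genes of the window had no count in any of the 8 libraries. Of 19791 protein-coding genes outside chromosome Y, 4263 were under 0.1 CPM in both lines. A count of 0 does not tell a silent gene from a missing one. MTAP itself had 0.304, 0.136, 0.251 and 0.432 CPM in BXPC3 and 0.786, 0.401, 0.236 and 1.32 CPM in MIAPACA2, which overlap and did not differ past the threshold (adjusted p = 0.0918, or 0.0448 without MIAPACA2 vehicle 3). HACD4 had 2 counts in BXPC3 and 3 in MIAPACA2. Beyond it, FOCAD at the edge of the window had 16.2, 19.6, 16.05 and 11.3 CPM in BXPC3 and no count in MIAPACA2.

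**Figure D5:**
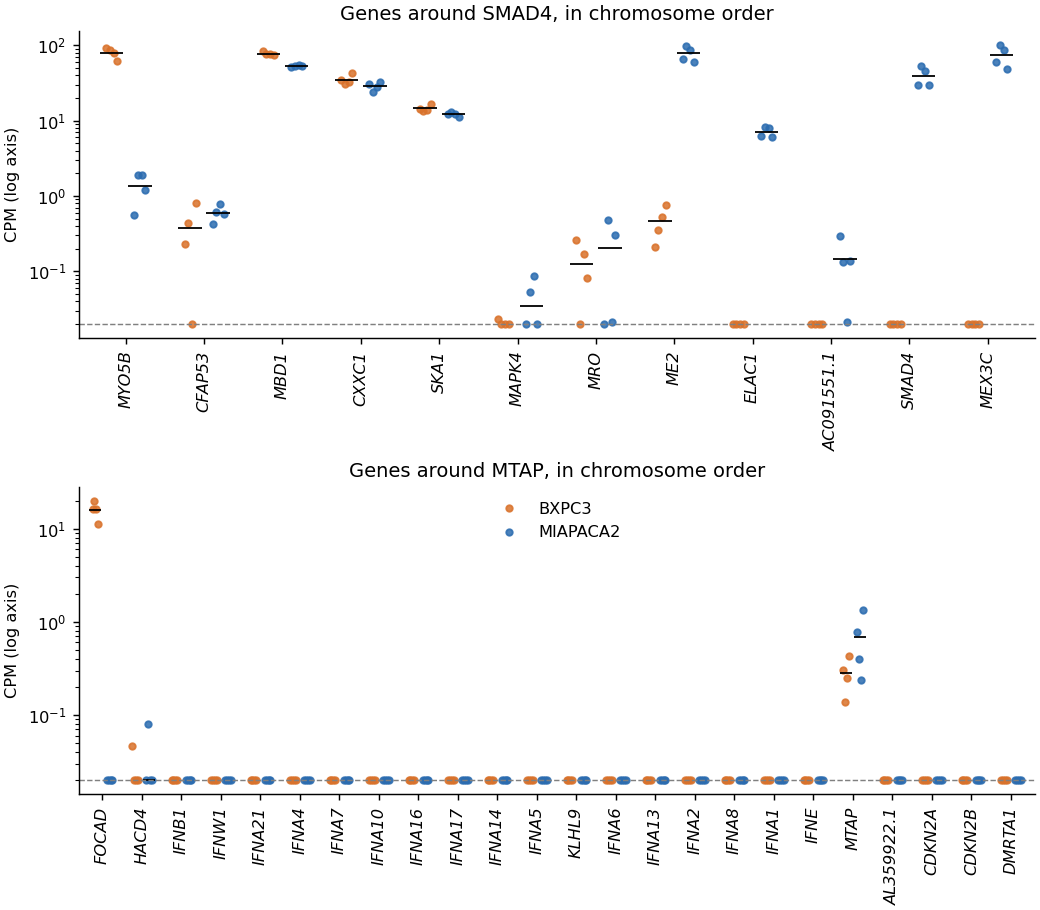
Protein-coding genes within 1 Mb of SMAD4 (top) and MTAP (bottom) in chromosome order, with the level in each vehicle library (CPM, log axis, libraries without a count on the dashed line at 0.02 CPM), BXPC3 in orange left of MIAPACA2 in blue. In the top panel BXPC3 lies on the line from ELAC1 to MEX3C, and in the bottom panel both lines lie on or near it apart from MTAP in both lines and FOCAD in BXPC3.

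Other stretches of neighbouring genes were measured in one line and near 0 in the other. Runs of at least 3 successive expressed protein-coding genes with 1 CPM or more in one line and under 0.1 CPM in the other numbered 28, of which 23 were on in BXPC3 and 5 in MIAPACA2. With the limits at 0.5 and 0.05 CPM there were 23, 18 and 5 of them. The longest, with 14 genes on chromosome 1 (152409243 to 153391188, GRCh38), was on in BXPC3 and holds cornified envelope genes such as IVL, SPRR1B and SPRR3 with S100A8 and S100A9. SPRR1B had 37.1, 42.4, 42.1 and 78.1 CPM in BXPC3 and no count in MIAPACA2. A run of 5 on chromosome 18 holds SERPINB5, the gene of maspin, at 277, 289.9, 281 and 222 CPM in BXPC3 and without a count in MIAPACA2. Of the runs on in MIAPACA2, one on chromosome 10 holds CDH23, VSIR and PSAP. PSAP had no count in BXPC3, against 598, 1077, 888 and 418 CPM in MIAPACA2, at least 37893-fold lower in BXPC3. Another, on chromosome 21, holds RIPK4, PRDM15, C2CD2 and ZBTB21, of which RIPK4, a kinase of keratinocyte differentiation, had no count in BXPC3 and 34.2, 38.1, 35.3 and 30.3 CPM in MIAPACA2. All 28 are a description of where such stretches lie. By chromosome the median log2 fold change of protein-coding genes ran from -0.997 on chromosome 21 (141 genes) and -0.54 on chromosome 17 to 0.73 on chromosome 15. DNA was not measured, so copy number and expression per copy cannot be told apart.

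Receptors and ligands of growth signals follow. Of 26 measured receptor tyrosine kinases 16 were beyond 2-fold higher in BXPC3 and 6 in MIAPACA2, against 19.1% and 16.4% of all genes. EGFR had 591, 614, 536 and 297 CPM in BXPC3, against 62.8, 99.7, 76.1 and 54.6 CPM in MIAPACA2, a log2 fold change of 2.80 ± 0.27. MET, the receptor of hepatocyte growth factor, had 1119, 1107, 968 and 542 CPM in BXPC3, against 21.2, 34.0, 26.2 and 18.4 CPM in MIAPACA2. ERBB2 did not pass the test of any difference (adjusted p = 0.156, or 0.0409 without MIAPACA2 vehicle 4). Those higher in MIAPACA2 included FGFR1, EPHA4 and RET, and RET had no count in BXPC3, against 4.16, 5.85, 4.75 and 4.79 CPM in MIAPACA2. Ligands gave 11 of 21 higher in BXPC3 and 4 in MIAPACA2, the latter near the share over all genes. TGFA, an EGFR ligand, averaged 95.9 ± 11.3 CPM in BXPC3 with 2 counts in MIAPACA2, while FGF2 had 4 counts in BXPC3 and averaged 22.1 ± 4.60 CPM in MIAPACA2, and IGF2 averaged 0.838 ± 0.463 CPM in BXPC3 and 57.5 ± 5.55 CPM in MIAPACA2.

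Feedback genes downstream of MAPK signalling held calls in both directions, with 7 of 22 measured genes beyond 2-fold higher in BXPC3 and 7 in MIAPACA2. Over all genes the shares were 19.1% and 16.4%. The ERK phosphatases were on the BXPC3 side. DUSP6 had 138, 136, 144 and 144 CPM in BXPC3, against 0.754, 0.695, 0.494 and 0.661 CPM in MIAPACA2, and DUSP4 had 119, 114, 112 and 90.8 CPM in BXPC3, against 0.131, 0.0535, 0.0859 and 0 CPM in MIAPACA2. The Sprouty inhibitors were on the MIAPACA2 side. SPRY2 had 33.9, 38.5, 36.3 and 26.0 CPM in BXPC3, against 311, 334, 333 and 292 CPM in MIAPACA2, and SPRY4 had 17.1, 15.9, 15.4 and 13.9 CPM in BXPC3, against 302, 233, 263 and 290.5 CPM in MIAPACA2. ETV5, a transcription factor of the same response, was also higher in MIAPACA2, with a log2 fold change of -2.53 ± 0.18. BRAF, a kinase upstream in the pathway, did not pass the test of any difference (adjusted p = 0.329, or 0.0268 without BXPC3 vehicle 4).

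YAP and TEAD targets, which respond to cell shape and the Hippo pathway, held calls in BXPC3, 13 of 22 measured beyond 2-fold higher in BXPC3 and none in MIAPACA2. For these and the WNT and Notch lists, the shares over all genes are 19.1% and 16.4%. ANKRD1 had 266, 296, 269.7 and 294 CPM in BXPC3, against 0.0983, 0.481, 0.150 and 0.303 CPM in MIAPACA2, and CCN1 had 793, 742, 712 and 914 CPM in BXPC3, against 93.7, 41.1, 54.0 and 84.6 CPM in MIAPACA2. F3, the gene of tissue factor, which starts clotting, had 3000.2, 2956, 2743 and 2701 CPM in BXPC3, against 0.459, 0.267, 0.172 and 0.193 CPM in MIAPACA2. In the WNT pathway, with 12 of 31 higher in BXPC3 and 9 in MIAPACA2, most of the ligands called were on the BXPC3 side. WNT7B had 173, 147, 159 and 179.5 CPM in BXPC3, against 0.459, 0.241, 0.859 and 0.716 CPM in MIAPACA2, and WNT10A averaged 134 ± 37.8 CPM in BXPC3 and 0.566 ± 0.418 CPM in MIAPACA2. TCF7, a transcription factor of the pathway, had 0.631, 1.20, 1.23 and 0.378 CPM in BXPC3, against 343, 282, 299 and 311 CPM in MIAPACA2. AXIN2, NKD1 and NOTUM, feedback genes of the pathway, were higher in MIAPACA2 as well, with AXIN2 at 0.168 ± 0.159 CPM in BXPC3 and 4.65 ± 0.644 CPM in MIAPACA2. RNF43, which removes WNT receptors, was higher in BXPC3, at 25.5 ± 2.39 CPM, than in MIAPACA2, at 0.0736 ± 0.0910 CPM. Notch genes gave 8 of 20 in BXPC3 and 4 in MIAPACA2, the latter near the share over all genes. NOTCH3, a receptor, had 8.93, 7.77, 8.77 and 9.08 CPM in BXPC3 and 46.4, 55.7, 49.6 and 40.3 CPM in MIAPACA2.

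Inflammatory genes come next, with 19.1% and 16.4% of all genes as the background shares for each list. Of 30 measured chemokines and cytokines 18 were beyond 2-fold higher in BXPC3 and 3 (CXCL5, CXCL6 and CCL5) in MIAPACA2. IL1A, an alarm cytokine of epithelia, had 287, 312, 278 and 219.6 CPM in BXPC3 and 2 counts in MIAPACA2. IL1B, the other interleukin 1 gene, had 172, 173, 162 and 190.2 CPM in BXPC3 and 9 counts in MIAPACA2. IL18, processed by the inflammasome, had 82.2, 84.8, 93.9 and 103 CPM in BXPC3, against 1.11, 1.31, 0.966 and 1.02 CPM in MIAPACA2. CXCL8, the neutrophil chemokine, was not beyond 2-fold, at 59.2, 53.7, 45.9 and 40.3 CPM in BXPC3 and 66.7, 69.2, 68.2 and 70.8 CPM in MIAPACA2. Interferon response genes gave 21 of 44 higher in BXPC3 and 4 in MIAPACA2. GBP1, a guanylate binding protein, averaged 59.8 ± 5.69 CPM in BXPC3 and 0.474 ± 0.130 CPM in MIAPACA2, while IFIT1, which binds viral RNA, had 8.46, 9.54, 9.72 and 8.51 CPM in BXPC3, against 86.4, 77.7, 72.8 and 77.4 CPM in MIAPACA2. Antigen presentation genes gave 7 of 20 in BXPC3 and 1 in MIAPACA2, with 2 in MIAPACA2 when any 1 of 5 libraries was left out. B2M, the light chain of class I molecules, had 1689, 1829, 1698 and 1906 CPM in BXPC3, against 513, 551, 537 and 444 CPM in MIAPACA2.

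Secreted proteases differed gene by gene, and the shares over all genes are again 19.1% and 16.4%. Metalloproteases and their inhibitors gave 9 of 16 higher in BXPC3 and 3 in MIAPACA2, or 5 in MIAPACA2 without BXPC3 vehicle 4. MMP14, a membrane-bound collagenase, had 1494, 1323, 1357 and 1312 CPM in BXPC3, against 15.4, 5.19, 9.54 and 17.8 CPM in MIAPACA2. TIMP3, an inhibitor, had 424, 435, 382 and 326 CPM in BXPC3 and no count in MIAPACA2, whereas TIMP2 averaged 224 ± 25.2 CPM in BXPC3 and 869 ± 174 CPM in MIAPACA2, where it was higher. Kallikreins gave 4 of 9 in each direction. KLK6 had 0.795, 0.136, 0.752 and 0.676 CPM in BXPC3, against 463, 440.2, 499 and 369.9 CPM in MIAPACA2, and KLK5 0.0468, 0.191, 0.0279 and 0.297 CPM in BXPC3, against 133, 116, 127 and 120.2 CPM in MIAPACA2. KLK10, in the same gene cluster, was higher in BXPC3, at 108, 103, 110.2 and 163 CPM, than in MIAPACA2, at 17.4, 13.1, 16.2 and 17.3 CPM.

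Redox and aldehyde enzymes differed by isoform, and their lists are read against 19.1% and 16.4% of all genes. Of 31 measured NRF2 targets 17 were beyond 2-fold higher in BXPC3 and 3 (ABCC2, HMOX1 and NQO1) in MIAPACA2. AKR1B10, an aldo-keto reductase, had 221, 202, 203 and 236 CPM in BXPC3, against 0, 0.0535, 0.150 and 0 CPM in MIAPACA2. SLC7A11, the cystine transporter, had 134, 132, 123 and 71.2 CPM in BXPC3, against 1.02, 1.26, 1.72 and 2.04 CPM in MIAPACA2. NQO1, a quinone reductase, had 424, 409, 406 and 524 CPM in BXPC3 and 1125, 1031, 972 and 995 CPM in MIAPACA2, close to the 2-fold limit (adjusted p = 0.0479 for beyond 2-fold). Among aldehyde dehydrogenases, 7 of 19 were higher in BXPC3 and 3 in MIAPACA2. ALDH1A1, which makes retinoic acid, had 0.491, 1.25, 1.03 and 0.892 CPM in BXPC3, against 1875, 1511, 1488 and 1743 CPM in MIAPACA2, a log2 fold change of -10.82 ± 0.32. ALDH1A3, an isoform with the same reaction, ran opposite, at 1833, 1699, 1649 and 1217 CPM in BXPC3 and 24.4, 31.9, 28.4 and 21.3 CPM in MIAPACA2. ALDH3A1 had 953, 867, 968 and 1389 CPM in BXPC3, against 0.492, 0.642, 0.687 and 0.744 CPM in MIAPACA2. GSTM1, a glutathione transferase whose gene is absent in many people, had 8 counts in BXPC3 and 64.5 ± 2.66 CPM in MIAPACA2, and its close relatives may share its reads.

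Lists of central metabolism held fewer calls than the epithelial ones. Each is read against the 19.1% of all genes higher in BXPC3 and the 16.4% higher in MIAPACA2. Of 35 measured glycolysis and hypoxia genes 10 were higher in BXPC3 and 2 in MIAPACA2. LDHB, a lactate dehydrogenase subunit, had 532, 520.5, 494 and 667 CPM in BXPC3 and a single count in MIAPACA2. Glucose transporters differed in both directions. SLC2A1 had 565, 515, 529 and 513 CPM in BXPC3, against 37.9, 51.8, 49.1 and 32.4 CPM in MIAPACA2, and SLC2A3 had 0.538, 0.136, 0.585 and 0.351 CPM in BXPC3, against 97.3, 131, 114 and 74.3 CPM in MIAPACA2. GLUL, the gene of glutamine synthetase, had 489, 497, 499.7 and 454 CPM in BXPC3 and 4 counts in MIAPACA2. ASS1, the arginine synthesis enzyme that some tumours lack, had 406, 380.2, 372 and 492 CPM in BXPC3, against 29.9, 20.6, 21.2 and 24.1 CPM in MIAPACA2, and PHGDH, the first enzyme of serine synthesis, had 256, 269.9, 264 and 342 CPM in BXPC3, against 30.8, 25.2, 30.0 and 22.5 CPM in MIAPACA2. Amino acid synthesis gave 9 of 27 in BXPC3 and 3 in MIAPACA2, and sterol and fatty acid synthesis 9 of 31 in BXPC3 and 3 in MIAPACA2. LSS, the gene of lanosterol synthase, had 55.0, 46.5, 46.9 and 44.2 CPM in BXPC3, against 272, 314, 305 and 244 CPM in MIAPACA2. Of 26 measured genes that handle nucleoside drugs, 6 were higher in BXPC3 and 4 in MIAPACA2, both near the shares over all genes. CDA, which deaminates cytidine drugs, had 25.2, 23.3, 23.4 and 50.9 CPM in BXPC3, against 0.360, 0.348, 0.537 and 0.744 CPM in MIAPACA2. DCK, which activates them, was not beyond 2-fold (adjusted p = 0.556).

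Imprinted and germline genes are given together. The neighbours IGF2 and H19 on chromosome 11 ran opposite, since H19, a noncoding RNA, had 2425, 2245, 2741 and 4239 CPM in BXPC3, against 20.5, 17.4, 19.1 and 24.4 CPM in MIAPACA2, and IGF2 was higher in MIAPACA2. Of 22 measured imprinted genes 10 were higher in BXPC3 and 4 in MIAPACA2. Of 22 measured cancer-testis antigen genes, out of 92 listed by name, 19 were beyond 2-fold higher in BXPC3 and 1 in MIAPACA2. The shares over all genes are 19.1% and 16.4%. Of the 22, 16 had no count in 1 of the lines and passed the filter on low counts through the other line alone. Such a gene is nearly bound to be called once it is tested. Of the 92, 43 had no count in BXPC3 and 75 none in MIAPACA2. MAGEA3, whose reads its near-copy MAGEA6 may share, had 145, 133, 144 and 132 CPM in BXPC3 and a single count in MIAPACA2. PRAME was the reverse, with 8 counts in BXPC3 and 60.6, 53.6, 47.3 and 64.7 CPM in MIAPACA2.

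Genes of the cell cycle, stress response and survival, and of the basic machinery of the cell, come next. MYC was not beyond 2-fold. CDKN1A, the inhibitor p21, had 122, 116, 113 and 119 CPM in BXPC3, against 3.31, 4.09, 4.36 and 3.03 CPM in MIAPACA2, a log2 fold change of 4.98 ± 0.16. GDF15, a stress cytokine, had 105, 92.4, 106 and 139 CPM in BXPC3, against 0.786, 1.02, 0.730 and 1.49 CPM in MIAPACA2, while MDM2 was not beyond 2-fold and CCNG1 was higher in MIAPACA2, with a log2 fold change of -1.83 ± 0.19. Of 21 measured G1 regulators only CCND2 and CDKN1A were higher in BXPC3 and CDKN1C and CDKN2C in MIAPACA2. Of 41 mitosis genes 5 were higher in BXPC3 (KIF2C, CDC20, PLK1, KIF23 and PRC1) and none in MIAPACA2, a share below the background. At any difference 28 of the 41 were higher in BXPC3 and 2 in MIAPACA2, against 33.9% and 31.1% of all genes, with summed levels of 4251 to 4581 CPM in the BXPC3 libraries and 2332 to 3110.2 CPM in the MIAPACA2 libraries. With AM9747, 20 of the 41 were beyond 2-fold higher in BXPC3 and none in MIAPACA2, against 19.4% and 19.8% of all genes tested there. The doses were 100 nM in BXPC3 and 150 nM in MIAPACA2, so line and dose cannot be told apart in that count. Of 44 replication genes none was higher in BXPC3 and 3 were in MIAPACA2, among them GINS4, a helicase subunit, at 8.74, 8.99, 9.19 and 6.30 CPM in BXPC3 and 189.5, 271, 239.7 and 173 CPM in MIAPACA2. BCL2 family genes gave 7 of 20 in BXPC3 and none in MIAPACA2, against 19.1% and 16.4% of all genes. BCL2L1, the gene of BCL-XL, averaged 266 ± 19.1 CPM in BXPC3 and 74.8 ± 9.75 CPM in MIAPACA2. Of 83 ribosomal protein genes 2 were higher in BXPC3 and 4 in MIAPACA2, or 12 in MIAPACA2 without BXPC3 vehicle 4. Of 79 nuclear genes of oxidative phosphorylation 2 were higher in BXPC3 and 2 in MIAPACA2, or 9 in MIAPACA2 without BXPC3 vehicle 4. Of 29 Sm, LSm and snRNP proteins 1 was higher in each line, with 0 to 3 in MIAPACA2 when 1 library was left out. Of 13 protein genes of the mitochondrial genome MT-ND1 and MT-ND2 were higher in MIAPACA2, and none was when BXPC3 vehicle 1, 2 or 3 or MIAPACA2 vehicle 1 or 4 was left out. MT-ND1 had 1405, 1333, 1319 and 2094 CPM in BXPC3, against 7369.5, 2249, 3849 and 8659 CPM in MIAPACA2, and its level varied within MIAPACA2 as the mitochondrial share given above did.

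Since the series tests a PRMT5 inhibitor in cells described as MTAP-deleted, the baseline of that pathway was read closely. None of the 12 measured PRMT and methylosome genes passed beyond 2-fold in either direction, while 1 higher in BXPC3 passed without BXPC3 vehicle 1 or without MIAPACA2 vehicle 2 or 3, and 1 higher in MIAPACA2 passed without BXPC3 vehicle 4. With library totals in place of TMM factors 2 passed as higher in MIAPACA2, and with median-of-ratios size factors 1 passed as higher in BXPC3. PRMT5, which places symmetric dimethyl marks on arginines (chromosome 14, 22920511 to 22929585 in GRCh38), had 119, 113, 115 and 99.8 CPM in BXPC3, against 40.7, 63.7, 54.6 and 31.6 CPM in MIAPACA2. The groups did not overlap and the log2 fold change of 1.23 ± 0.20 passed the test of any difference (adjusted p = 3.98e-04) and not that beyond 2-fold (adjusted p = 0.12). WDR77, its obligate partner, had 75.9, 79.1, 78.7 and 107 CPM in BXPC3, against 32.6, 35.2, 40.1 and 37.0 CPM in MIAPACA2, with a log2 fold change of 1.23 ± 0.15. PRMT7 and PRMT2 ran the other way, at -1.17 ± 0.16 and -1.13 ± 0.12. CLNS1A, the adaptor for Sm proteins, did not pass (adjusted p = 0.0688, or 0.036 without MIAPACA2 vehicle 2 and 0.0433 by DESeq2). MAT2A, which makes the methyl donor, had 264, 262, 257 and 209.6 CPM in BXPC3 and 353, 523, 515 and 471 CPM in MIAPACA2, a log2 fold change of -0.91 ± 0.16. Of 25 measured genes of the methionine cycle and salvage, 2 were beyond 2-fold higher in BXPC3 (NNMT and IL4I1) and 3 higher in MIAPACA2. The 3 were APIP and ADI1, enzymes of methionine salvage downstream of MTAP, and SMS, spermine synthase, a source of methylthioadenosine. APIP had 11.01, 13.3, 10.8 and 14.7 CPM in BXPC3, against 72.6, 57.9, 64.5 and 66.0 CPM in MIAPACA2, and ADI1 averaged 33.3 ± 2.44 CPM in BXPC3 and 162 ± 8.85 CPM in MIAPACA2. SMS averaged 97.3 ± 13.5 CPM in BXPC3 and 309 ± 27.1 CPM in MIAPACA2. The background shares are 19.1% and 16.4%, and the MIAPACA2 count was 6 in the fit of 16 libraries and 5 with library totals.

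Markers of other cell types are given list by list, and their part in the line differences was not tested. Beyond 2-fold, 19.1% of all genes were higher in BXPC3 and 16.4% in MIAPACA2. Of 12 fibroblast and stellate markers 8 passed the filter on low counts, with 5 beyond 2-fold higher in BXPC3 and COL1A2 and RGS5 higher in MIAPACA2. Their summed level was 41.97 to 48.5 CPM in the BXPC3 libraries and 1741 to 2802 CPM in the MIAPACA2 libraries, most of it COL1A2. DCN, FAP and THY1 averaged 0.0521 ± 0.0367, 0.0196 ± 0.0132 and 0.151 ± 0.141 CPM in BXPC3 and had no count in MIAPACA2. Of 15 acinar markers, 3 passed that filter, with 2 beyond 2-fold higher in BXPC3 and none in MIAPACA2. CEL, a lipase, was the highest of the 3 measured, with 23.99, 18.5, 17.6 and 28.2 CPM in BXPC3 and 7.70, 2.19, 3.63 and 9.23 CPM in MIAPACA2. Of 11 endocrine markers CHGB alone passed, and INS, GCG and SST had no more than 2 counts in either line. Of 12 leukocyte markers 5 passed the filter, with 3 beyond 2-fold higher in BXPC3 and none in MIAPACA2. PTPRC, the pan-leukocyte CD45 gene, had 7 counts in BXPC3 and 3 in MIAPACA2. CD68, a lysosomal protein of macrophages, was at 32.6 ± 2.55 CPM in BXPC3 and 7.21 ± 4.25 CPM in MIAPACA2. Of 10 endothelial markers 6 passed the filter, with 4 beyond 2-fold higher in BXPC3 and 1 in MIAPACA2. CDH5 was measured at 11.4 ± 1.60 CPM in BXPC3 with a single count in MIAPACA2. ROBO4 was the reverse, with 4 counts in BXPC3 and 7.38 ± 1.33 CPM in MIAPACA2. With at least 5 CPM asked in 4 libraries, 1 marker on each of the acinar, leukocyte and endothelial lists was higher in BXPC3. The ductal and epithelial list, which should mark pancreatic adenocarcinoma, gave 9 of 11 measured genes higher in BXPC3 and SOX9 higher in MIAPACA2. CDH1, EPCAM and KRT7 were thus near 0 in the MIAPACA2 libraries, while KRT8, KRT18 and KRT19 were present in both lines.

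The line differences were measured again in the AM9747 libraries. There, 19222 genes were tested, 13154 (68.4%) passed at an adjusted p below 0.05 and 7525 (39.1%) passed beyond 2-fold, 3726 higher in BXPC3 and 3799 in MIAPACA2. Of the 3378 genes beyond 2-fold higher in BXPC3 with vehicle and tested with AM9747, 2914 (86.3%) were so again, against 19.4% of all genes tested there. Of the 2873 higher in MIAPACA2, 2510 (87.4%) were so again, against 19.8%. Of the first set 6 passed at an adjusted p below 0.05 in the opposite direction and of the second none. With AM9747, the log2 fold change of CDH1 was 11.66 ± 0.53, of VIM -8.79 ± 0.24, of ZEB1 -5.70 ± 0.30, of PRMT5 1.58 ± 0.19 and of EGFR 3.21 ± 0.22. MUC1, a membrane mucin, differed between the pairs of groups. It averaged 128 ± 13.1 CPM in BXPC3 and 10.4 ± 1.52 CPM in MIAPACA2 with vehicle, a log2 fold change of 3.61 ± 0.16, and with AM9747 it averaged 23.2 ± 1.90 CPM in BXPC3 and 18.9 ± 5.35 CPM in MIAPACA2 (SD, n = 4 each), a log2 fold change of 0.29 ± 0.20 (adjusted p = 0.224). The test of the difference between these fold changes gave an adjusted p of 9.94e-07. The doses differ between the lines, so with AM9747 line and dose cannot be told apart.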

How the data were processed

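Poly(A) RNA of each library was sequenced and counted by the authors. Per the submitters' processing notes, fastp 0.19.8, HISAT2 2.2.0, R 4.0.2 and DESeq2 1.34.0 were used with GRCh38. The read counter is not given in the sources used here. Values are raw counts as deposited for 60366 entries, of which 56271 matched GENCODE 29, and 0 columns belonged to no sample. The labels do not state that counting used strand.

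From the counts, edgeR 4.0.16 (R 4.3.3; TMM factors, filterByExpr, quasi-likelihood test, Benjamini-Hochberg adjustment) was fitted to the 8 vehicle libraries, with 6 residual degrees of freedom, and in the same way to the 8 AM9747 libraries. Differences beyond 2-fold used glmTreat. The fit was tested on simulated counts in which only a small set of genes was changed. In the data most genes differed, so that test does not bear on scaling or error rates in such a case. Single values are CPM with TMM scaling, shown with SD over 4 libraries. Floors cover counting error only. The members, gene lists and tests were chosen with earlier results of these data known. The text names the 10 highest genes per line that were under 0.1 CPM in the other, the 10 largest differences per direction above 1 CPM in both lines, a set of key genes, up to 4 members per list, and genes of neighbouring runs. The highest genes, the largest differences and the list members had to pass the test of any difference (adjusted p below 0.05). They also had to show no overlap between the lines. Of 255 genes named, 92 lie outside that rule and were chosen after their values were seen. Alternatives were other tests (limma 3.58.1 voom with TMM factors, and DESeq2 1.42.0 with its own size factors) and other scaling factors (library totals, median-of-ratios size factors). Filters, larger fits, a replicate block and leaving out each library were the others. Some items that the rule names are not reported here.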

Additional observations from a re-analysis of the deposited data

Results flagged for a closer look

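In 28 of 268 groups of 4 libraries 1 library lay apart from the others, with a gap to the nearest, as a share of the group's range, above Dixon's 95% critical value for 4 samples. Only groups with at least 40 counts were examined, and chance flags about 1 in 20 groups. BXPC3 vehicle 4 was that library in 24 of the 28. It was above the other BXPC3 libraries for CDA (50.9 CPM against 23.3 to 25.2 CPM), FXYD3 (1099.7 CPM against 565 to 623 CPM), HOXB7 (29.7 CPM against 16.3 to 18.0 CPM) and ID1 (495 CPM against 202 to 238 CPM). Also above were ID3 (9.65 CPM against 5.83 to 6.16 CPM), KLK10 (163 CPM against 103 to 110.2 CPM), KRT17 (8084 CPM against 4438 to 4833 CPM) and KRT18 (2794 CPM against 1541 to 1715 CPM). Higher there as well were KRT8 (3587 CPM against 2124 to 2313 CPM), MT-ND1 (2094 CPM against 1319 to 1405 CPM), NQO1 (524 CPM against 406 to 424 CPM) and PHGDH (342 CPM against 256 to 269.9 CPM). The rest above were RAB25 (128 CPM against 81.3 to 84.8 CPM), SFN (1189 CPM against 729 to 789 CPM), SPRR1B (78.1 CPM against 37.1 to 42.4 CPM) and WDR77 (107 CPM against 75.9 to 79.1 CPM). Above too was WNT10A (191 CPM against 109 to 121 CPM). It was below the other BXPC3 libraries for BRAF (31.8 CPM against 49.4 to 52.4 CPM), CCNG1 (50.8 CPM against 75.2 to 79.7 CPM), GINS4 (6.30 CPM against 8.74 to 9.19 CPM) and GRHL2 (81.0 CPM against 113 to 119 CPM). Also below were ITGA6 (256 CPM against 562 to 625 CPM), KLF5 (298 CPM against 431 to 456 CPM) and MAT2A (209.6 CPM against 257 to 264 CPM). ELF3 was higher in MIAPACA2 vehicle 1, with 5.14 CPM against 4.17 to 4.24 CPM in the other libraries of the line. ID3 was higher in MIAPACA2 vehicle 3, with 346 CPM against 280.1 to 289 CPM in the other libraries of the line. KRT8 was lower in MIAPACA2 vehicle 2, with 628 CPM against 706 to 709 CPM in the other libraries of the line. STOM was lower in MIAPACA2 vehicle 3, with 0.666 CPM against 1.31 to 1.42 CPM in the other libraries of the line.

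The line difference was not the same with vehicle and with AM9747 for 36 of the 166 genes given above with values that were tested, by an interaction term in a fit of the 16 libraries (edgeR's quasi-likelihood test, adjusted over all 21084 genes tested, of which 1499 passed). The values that follow are the log2 fold change of BXPC3 over MIAPACA2 with vehicle minus that with AM9747. The difference shifted towards BXPC3 with vehicle for MUC1 (3.28, adjusted p = 9.94e-07), PHGDH (2.09, adjusted p = 1.57e-05), KLK10 (2.05, adjusted p = 4.39e-05), MMP14 (3.16, adjusted p = 2.00e-04) and IL18 (1.55, adjusted p = 7.37e-04). Next by adjusted p were EPCAM (4.04, adjusted p = 0.00185), WNT10A (3.31, adjusted p = 0.00191), ALDH3A1 (2.16, adjusted p = 0.0026), SLC7A11 (1.80, adjusted p = 0.00276) and KRT13 (2.04, adjusted p = 0.00421). Further genes were ASS1 (1.04, adjusted p = 0.00435), DUSP6 (1.05, adjusted p = 0.00691), GDF15 (1.57, adjusted p = 0.00782), STOM (1.29, adjusted p = 0.0117) and CDH3 (1.496, adjusted p = 0.012). Then came F3 (1.59, adjusted p = 0.0156), CXCL8 (0.83, adjusted p = 0.0167), GATA6 (4.57, adjusted p = 0.0247), ALDH1A3 (0.83, adjusted p = 0.0287) and H19 (0.88, adjusted p = 0.0373). It shifted towards MIAPACA2 with vehicle for TUBB3 (-2.28, adjusted p = 2.74e-05), SPRY4 (-1.06, adjusted p = 4.52e-04), SPRY2 (-1.27, adjusted p = 0.00113), ID3 (-1.31, adjusted p = 0.002) and VIM (-1.42, adjusted p = 0.00251). After these came TUBA1A (-2.04, adjusted p = 0.00373), ID2 (-2.11, adjusted p = 0.00829), SNAI1 (-1.13, adjusted p = 0.0146), SCG2 (-1.17, adjusted p = 0.0172) and NQO1 (-0.70, adjusted p = 0.0172). Others were HOXB9 (-0.82, adjusted p = 0.019), SOX9 (-0.66, adjusted p = 0.0193), COL5A2 (-1.05, adjusted p = 0.0194), SKA1 (-0.76, adjusted p = 0.021) and IL1B (-5.12, adjusted p = 0.0388). The list ends with CCN1 (-0.96, adjusted p = 0.0388). GATA6, EPCAM and IL1B rest on few or no counts in MIAPACA2 with vehicle or with AM9747, so the sizes given for them depend on how the fit treats counts near 0. The AM9747 doses differ between the lines, so a response of the line and of the dose cannot be told apart.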

How the results depend on the processing

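The counts of genes that differed kept within 1.5 times their main value under the alternatives for scaling, test, fit and left-out library. Leaving out 1 library gave 5869 to 6732 genes higher in BXPC3 and 5316 to 6435 higher in MIAPACA2, 11185 to 13167 in all. For differences beyond 2-fold the ranges were 3372 to 3803 and 2802 to 3507, 6308 to 7291 in all. The highest values came without BXPC3 vehicle 4 for both totals. With AM9747, leaving out 1 library gave 12627 to 13687 genes. DESeq2 called 12554 genes and limma voom 12281 with vehicle. With library totals in place of TMM factors, 5383 genes were higher in BXPC3 and 6666 in MIAPACA2, which is 44.7% of calls in BXPC3 against 52.2%. The filter of at least 5 CPM in 4 libraries, which tests fewer genes, left 3837 genes beyond 2-fold, 2129 higher in BXPC3 and 1708 in MIAPACA2. Replicate numbers were not taken to pair the libraries, since deviations of libraries with the same number correlated at -0.28, 0.43, 0.21 and 0.50, below the 0.1 asked of every pair in 1 case, and 2 of the 4 correlated best with their own number. With the replicate block 12445 genes differed, 6561 higher in BXPC3 and 5884 in MIAPACA2, 2 PRMT and methylosome genes passed beyond 2-fold as higher in BXPC3, and HOXB7 passed (adjusted p = 0.0254).

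Among the genes named and tested, 4270 results under alternatives held 4232 on the same side of the threshold, 28 past it in the fit reported but not under the alternative and 10 past it only under the alternative. None of these results changed sign. Of 1632 counts over gene lists under alternatives, 1557 stayed within 1.5 times.

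Depth of 30068464 to 45561185 counts limits statements on genes under about 0.1 CPM. Levels are relative to all transcripts, so a change in total RNA per cell was not measured. The labels do not name separate cultures, so the spread is that among libraries of 1 line.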
